A study of Mus musculus with 15 samples.

Results

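Leukocytes seed the stomach wall before birth and remain in it for life, and 34 marker genes of their lineages were followed here through mouse stomach development. The markers were taken by gene symbol from a fixed list: Ptprc for all leukocytes, 5 genes for T cells, 4 for B cells, 9 for macrophages, 7 for mast cells, 4 for natural killer (NK) and cytotoxic cells and 4 for granulocytes. All 34 were found among the 44788 gene symbols of the series, 33 under the listed symbol and Siglecf under its older symbol, Siglec5. RNA was sequenced from whole stomachs of C57BL/6 mice, with no genetic change or treatment given in the labels, and with 1 library at each of 15 timepoints. The 15 ages fell into a fetal stage (n = 7; every day from E12.5 to E18.5, counted from mating), a suckling stage (n = 5; postnatal days D1, D3 and D5 and weeks W1 and W2) and a stage from weaning on (n = 3; W3, W6 and W8), called weaned here. According to the methods of the study, the stomachs were washed to remove blood before they were frozen. By the study's description of its animals, stomachs of 3 embryos were pooled for a replicate from E12.5 to E14.5 and of 2 embryos from E15.5 to E17.5, and after E18.5 a replicate was 1 stomach. Animals up to W2 were taken without regard to sex and older ones were male, so sex and age cannot be told apart at the step to the weaned stage. The study describes whole organs for all 15 ages, so forestomach, glandular stomach, muscle and any attached vessels would be sequenced together. The libraries differed in RNA of squamous epithelium, which lines the forestomach. The summed level of 11 squamous genes was 3407 FPKM at W3, 1604 FPKM at W6 and 66.9 FPKM at W8. What part the share of forestomach in a library, at W8 above all, had in the marker values was not tested.

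Macrophages of the gut wall arise first from embryonic precursors and are partly replaced by monocyte-derived cells after birth. They depend on CSF1R, take up dying cells and secrete the complement component C1q. Mast cells are divided in the mouse into a connective tissue type, which stores the proteases Mcpt4, Cma1 (also called Mcpt5) and Tpsb2, and a mucosal type, which stores Mcpt1 and Mcpt2. T, B and NK cells populate gut tissue mainly after birth, and neutrophils carry large amounts of the calcium-binding proteins S100A8 and S100A9, which squamous epithelia can also make.

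Levels are FPKM, fragment counts scaled by the length of the transcript and the size of the library, so levels of different genes are compared here per length. Each deposited value carries a lower and an upper confidence bound, which cover counting error only. If a bound is the value plus or minus 2 standard errors of a fragment count, the libraries held between 10600000 (E16.5) and 17000000 (W6) fragments in genes, and the fragments behind a marker quoted below were read from its bounds in the same way. Genes of the stomach itself were present in all libraries, since the summed FPKM of 10 stomach genes ran from 835 to 311105. The sum of all FPKM values grew from 745538 at E14.5 to 1344957 at W6, and the number of genes at an FPKM of at least 1 was smallest at W6 (12387). A difference in FPKM is therefore a difference in share of the library, and the median of all tested genes moved by -0.22 (log2) from the fetal to the suckling stage and by -0.42 from the suckling to the weaned stage. With each library rescaled by the median ratio of its genes, these medians were 0.01 and -0.03. In a whole organ, fewer cells of a type and less RNA per cell cannot be told apart.

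The lineages differed widely in level. Summed over their markers, macrophage genes stood highest, with 80.0 to 163 FPKM in the fetal, 180 to 234 in the suckling and 128 to 268 in the weaned stage. Mast cell genes summed to 3.96 to 18.4 FPKM, 24.0 to 39.7 and 18.3 to 88.5 in the same stages, and granulocyte genes to 11.5 to 58.7, 3.64 to 88.3 and 3.47 to 12.1. T cell genes summed to at most 2.20 FPKM, B cell genes to at most 2.75 and NK and cytotoxic genes to at most 1.52 in any library. Ptprc, which encodes the CD45 phosphatase carried by nearly all leukocytes, lay between 0.874 and 1.74 FPKM at all 15 timepoints. Thus the macrophage sum was between 79.9 and 216 times the level of Ptprc. The mast cell sum was at 3.95 times Ptprc at E12.5 and 13.8 times at W2. It was at 69.5 times at W3, 60.9 times at W6 and 14.9 times at W8.

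**Figure D1:**
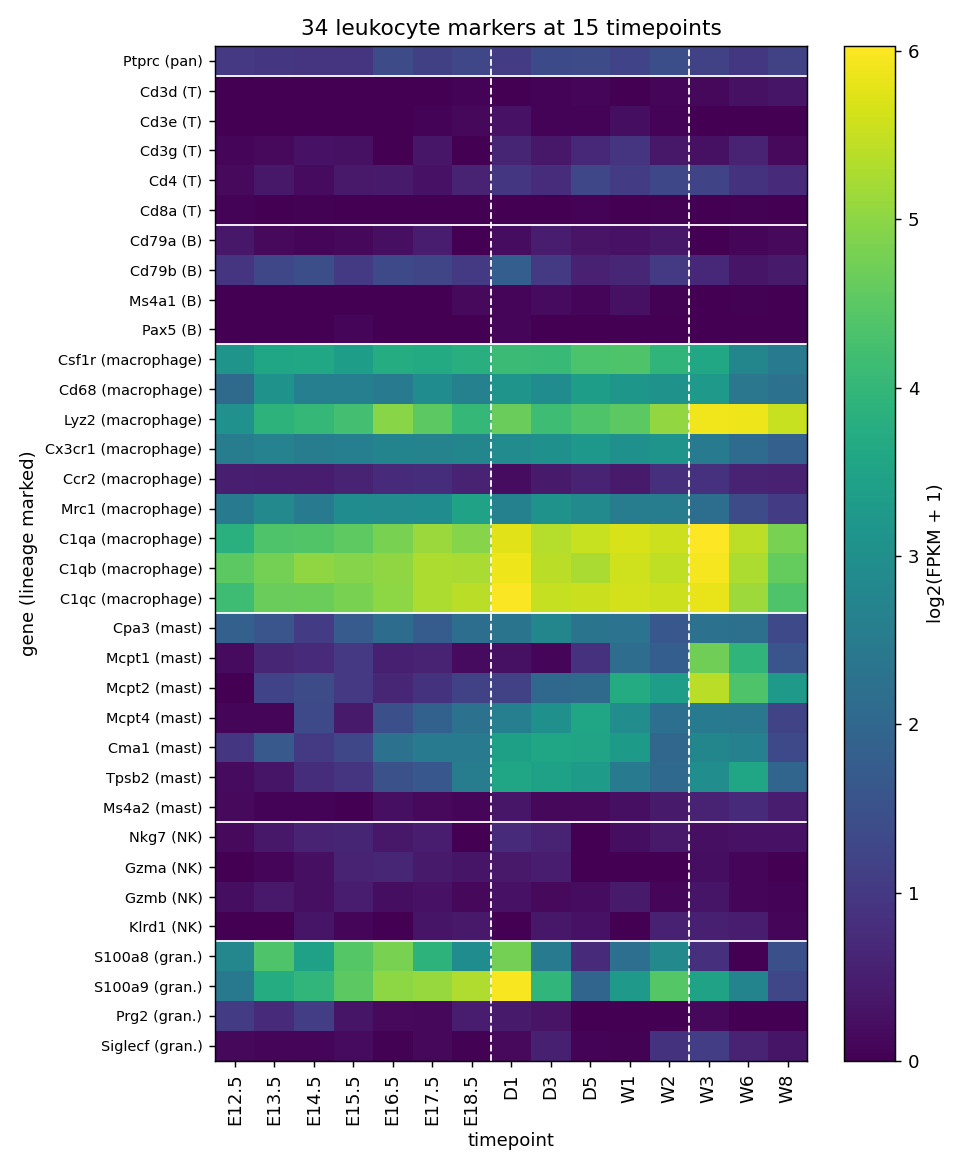
Heat map of log2(FPKM + 1) for the 34 markers (rows, lineage in brackets) at the 15 timepoints (columns), with dashed lines at birth and at weaning. The C1q genes, Lyz2, Csf1r and S100a9 are bright, the lymphoid and NK rows stay dark, and Mcpt1 and Mcpt2 brighten at W3, where they reached 25.6 and 41.6 FPKM.

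Of the 34 markers, 21 reached an FPKM of 1 at some timepoint and were tested with limma on log2(FPKM + 1) together with all other such genes (16902). The timepoints of a stage served as its replicates, so p-values measure the stages against the spread of ages within them. Of the 21, 11 differed across the 3 stages at an adjusted p under 0.01, against 67.9% of all genes tested. From the fetal to the suckling stage 8 markers rose and 0 fell, where 10.8% of all genes rose and 30.6% fell. At an unadjusted p under 0.05 limma gave 12 higher and 2 lower markers (S100a8 and Prg2), and with a mean-variance trend it gave the same counts of 8 and 0. From the suckling to the weaned stage 2 markers rose and 3 fell, where 2.57% of all genes rose and 28.9% fell. The median difference of the 21 markers was 0.49 at the first step and -0.33 at the second (log2), beside the all-gene medians above. By the plain criterion that no value of one stage reached into the other, 5 of the 21 lay above their fetal values in the suckling stage (6.63% of all genes) and 0 lay below (20.9%). At the second step 1 lay above (4.90%) and 3 lay below (46.5%). Between the fetal and the weaned stage these shares were not computed. The count of 8 became 5 when E12.5, E13.5, E15.5, D3, D5 or W1 was left out, and the 2 markers that rose at weaning became 0 without D1, D3, D5, W3 or W6. With median-ratio scaling 0 markers fell at weaning.

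**Figure D2:**
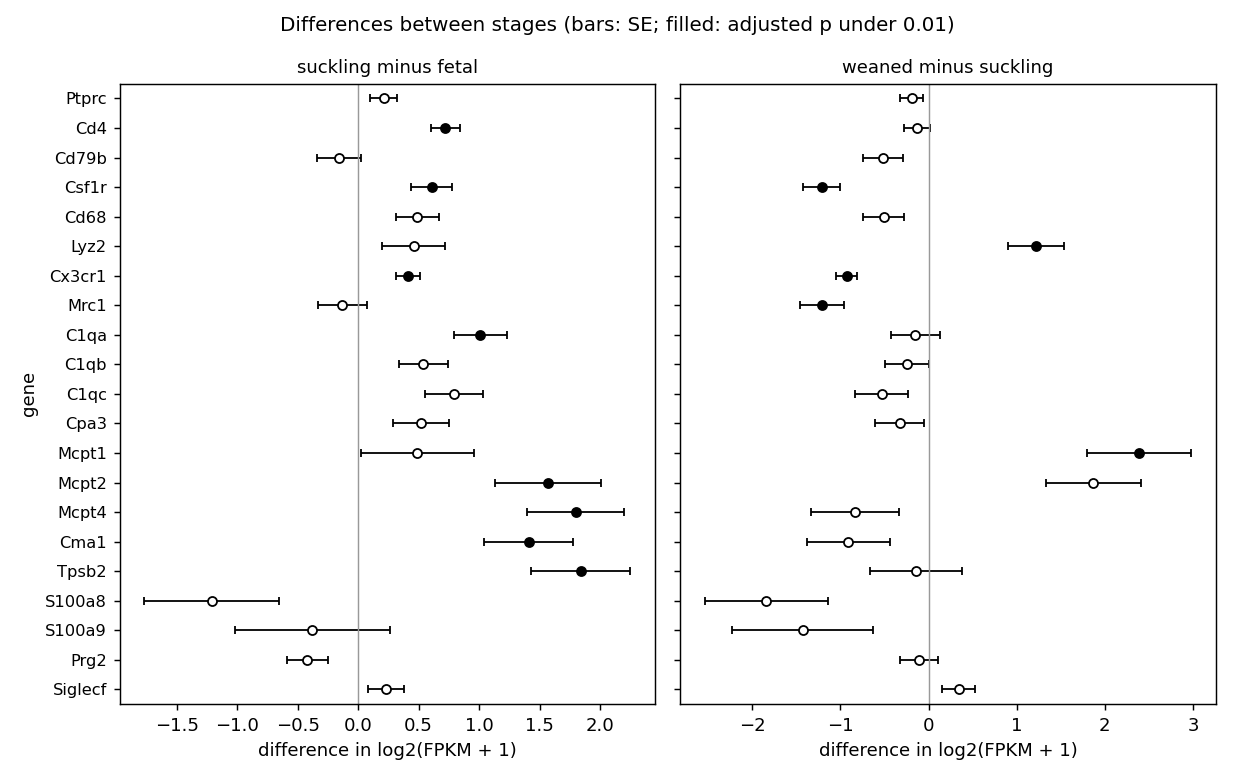
Difference in mean log2(FPKM + 1) between consecutive stages for the 21 tested markers, with standard errors; filled points passed an adjusted p of 0.01. Tpsb2, Mcpt4, Mcpt2 and Cma1 lie farthest to the right at the first step (1.84, 1.80, 1.57 and 1.41), and at the second step Mcpt1 (2.39) and Lyz2 (1.22) lie opposite to Csf1r, Mrc1 and Cx3cr1.

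Among the macrophage markers, the receptor genes Csf1r, Cx3cr1 and Mrc1 fell at weaning, though none of these 3 falls passed with median-ratio scaling, Lyz2 rose, and the C1q genes passed in neither direction. Csf1r, the receptor for the macrophage growth factors CSF1 and IL-34, rose from the fetal to the suckling stage and fell from the suckling to the weaned stage, while Lyz2, which encodes lysozyme M, rose at weaning. Csf1r (GRCm38, chromosome 18, 61096661 to 61131139, plus strand) had a lowest, median and highest fetal level of 7.74, 11.3 and 12.8 FPKM. After birth it stood at 16.3 (D1), 15.6 (D3), 19.1 (D5) and 19.7 FPKM (W1), within bounds of 13.4 and 15.6 FPKM at W2, and then at 11 (W3), 5.83 (W6) and 4.60 FPKM (W8). All 5 suckling values were above all fetal values and above all weaned values. Between 754 and 898 fragments stood behind each suckling value and between 311 and 538 behind each weaned one. The first step was 0.61 (SE 0.17, adjusted p = 0.0076) and the second -1.21 (SE 0.21, adjusted p = 0.000758), both on the log2(FPKM + 1) scale. The call at the first step was lost when D1, D3, D5, W1, W2 or any fetal timepoint up to E15.5 was left out, with differences of 0.54 to 0.66, and with a pseudocount of 0.1, no filter on low genes, or E17.5 and E18.5 counted as suckling. With median-ratio scaling the second step was -0.70 and did not pass. The deposited locus of Csf1r overlaps 1 other entry, Mir6983, over 64 bases, and the longer GENCODE gene model also holds 873 bases of Hmgxb3 on the opposite strand. Whether the counting used strand is not given in the sources used here.

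Cx3cr1, the fractalkine receptor of resident macrophages, followed Csf1r closely. It lay between 4.84 and 5.80 FPKM before birth (median 5.35), at 6.55, 7.17, 8.29, 7.18 and 7.75 FPKM from D1 to W2, and at 4.48, 3.29 and 2.60 FPKM at W3, W6 and W8. The 3 stages did not overlap. Both steps passed, with 0.41 (SE 0.10, adjusted p = 0.0031) and -0.93 (SE 0.12, adjusted p = 0.000199). With median-ratio scaling the second step was -0.47, and with E17.5 and E18.5 counted as suckling the first was 0.35, and neither passed. Its deposited locus overlaps 1 other entry, LOC102636917, over 35 bases, whereas the longer GENCODE model also spans Ttc21a and Wdr48 on the opposite strand (30188 and 24972 bases) and Csrnp1, Gorasp1 and Xirp1 on its own (13496, 12309 and 9844 bases). The ratio of Cx3cr1 to Csf1r stayed between 0.365 and 0.625 over the 15 timepoints, and Pearson's r between their log2 levels was 0.947 (n = 15 timepoints, a description, since neighbouring ages share their trend).

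Mrc1, the mannose receptor CD206, differed from both in its time of highest level. It was at 4.65 to 10.2 FPKM before birth (median 6.57), with the highest value at E18.5, at 5.32, 7.40, 6.39, 4.88 and 4.77 FPKM from D1 to W2, and at 3.53, 1.59 and 1.06 FPKM at W3, W6 and W8. All weaned values lay below all suckling values. The first step was -0.13 (SE 0.20, adjusted p = 0.574) and Mrc1 fell at the second by 1.21 (SE 0.25, adjusted p = 0.00179). The sign of the first step turned with median-ratio scaling (0.11) and when E18.5 was counted as suckling (0.09). The second step did not pass without W6 (-1.13), without W8 (-0.96) or with median-ratio scaling (-0.82). Relative to Csf1r, Mrc1 was at 0.797 at E18.5 and at 0.231 at W8.

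Cd68, a lysosomal membrane protein of phagocytes, was at 3.24 to 7.58 FPKM before birth, 6.65 to 9.31 in the suckling and 3.74 to 8.45 in the weaned stage. Its steps of 0.49 (SE 0.18, adjusted p = 0.033) and -0.51 (SE 0.23, adjusted p = 0.0749) did not pass, and the stages overlapped. Without W3 the second step passed, at -0.82, and with median-ratio scaling the first did, at 0.73. Ccr2, the chemokine receptor of monocytes, stayed between 0.148 FPKM at D1 and 0.801 FPKM at W3 and was not tested.

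Of the secreted products, Lyz2 (chromosome 10, 117277541 to 117282272, minus strand) was at 7.23 to 30.2 FPKM before birth (median 15.1), with the highest fetal value at E16.5. It was at 24.3, 17.0, 19.6, 21.8 and 32.2 FPKM from D1 to W2 and at 58.7, 58.1 and 45.2 FPKM at W3, W6 and W8. All weaned values lay above all other values, with 834 to 1125 fragments behind each. The second step was 1.22 (SE 0.32, adjusted p = 0.00662), the first 0.46 (SE 0.26, adjusted p = 0.133). The second did not pass when D1, D3, D5, W1, W3, W6 or W8 was left out (1.12 to 1.34) or without a filter on low genes, and it was 1.79 with median-ratio scaling. The ratio of Lyz2 to Csf1r was between 0.934 and 2.48 up to W2, and then 5.32, 9.97 and 9.83. Lysozyme is also made by some epithelial gland cells, and the paralog Lyz1, known from Paneth cells of the intestine, rose at the same step (1.14, SE 0.20, adjusted p = 0.000858) from at most 1.15 FPKM up to W2 to 2.89, 3.17 and 1.74 FPKM. Of the 50-base windows of the longest Lyz2 transcript in the GENCODE annotation, 15.4% occur letter for letter in Lyz1. What part Lyz1 or epithelial cells had in the Lyz2 values was not tested.

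C1qa, C1qb and C1qc encode the chains of C1q and lie side by side within chromosome 4, 136880145 to 136898844, all on the minus strand. Before birth their levels ran from 13.2 to 33.8 (C1qa, median 22.0), 21.7 to 37.9 (C1qb, median 31.6) and 17.0 to 41.6 FPKM (C1qc, median 27.0), each lowest at E12.5. C1qa was at 53.5, 40.3, 44.9, 49.4 and 46.6 FPKM from D1 to W2 and at 64.4, 42.0 and 27.1 FPKM at W3, W6 and W8. C1qc was at 62.7, 44.2, 46.1, 48.2 and 46.3 FPKM from D1 to W2 and at 55.9, 34.7 and 19.8 FPKM from W3 to W8. C1qb was at 57.7, 41.7, 37.2, 47.2 and 42.5 FPKM from D1 to W2 and at 60.5, 38.0 and 23.3 FPKM from W3 to W8. For C1qa and C1qc all suckling values lay above all fetal values, for C1qb D5 reached into the fetal range, and the weaned values of all 3 spread from the fetal range to or above the suckling range. C1qa rose at the first step by 1.01 (SE 0.22, adjusted p = 0.00192). C1qb (0.54, SE 0.20, adjusted p = 0.0308) and C1qc (0.79, SE 0.24, adjusted p = 0.0118) missed the threshold, although both passed with median-ratio scaling, at 0.82 and 1.07. C1qc also passed without E17.5, E18.5, W3 or W8, and with E18.5 alone or E17.5 and E18.5 counted as suckling. None of the 3 passed at weaning, where the sign of each turned with median-ratio scaling, and that of C1qa and C1qb without W8 (0.15 and 0.10). The level of C1qa per C1qb was 0.605 at E12.5, at most 0.967 up to D3, and between 1.05 and 1.21 from D5 on. The ratio of C1qc to C1qb stayed between 0.770 and 1.24.

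**Figure D3:**
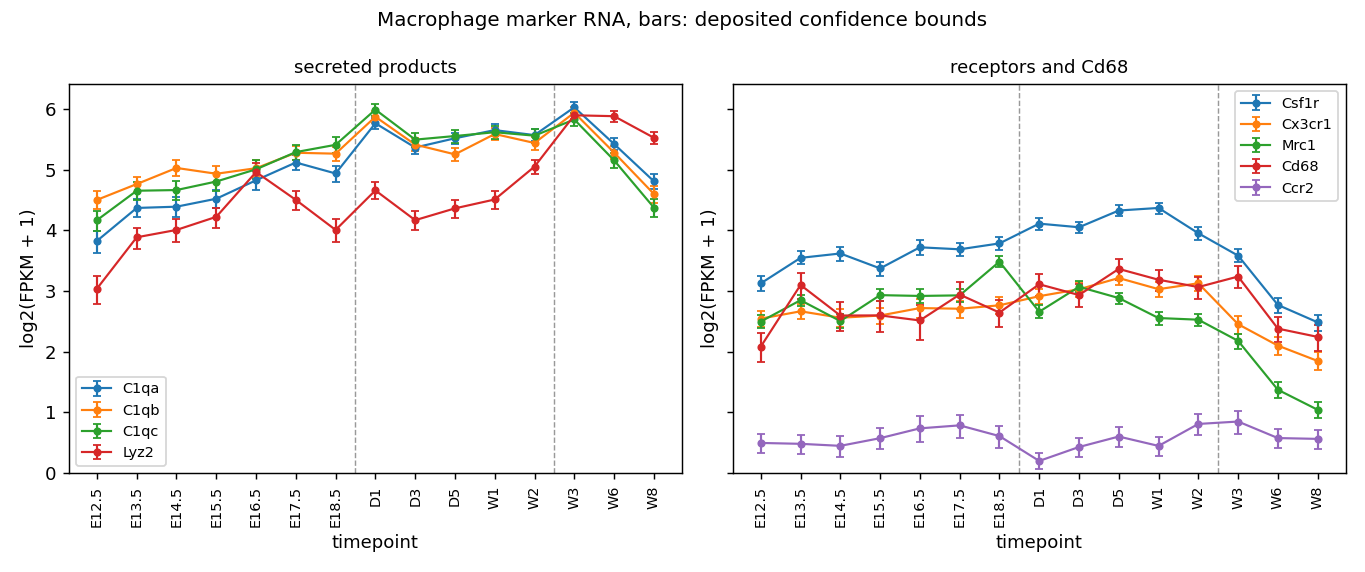
Macrophage markers at the 15 timepoints as log2(FPKM + 1), with the deposited confidence bounds as bars and dashed lines at birth and weaning. Left, the C1q genes and Lyz2; right, Csf1r, Cx3cr1, Mrc1, Cd68 and Ccr2. Lyz2 stays high at W6 and W8 (58.1 and 45.2 FPKM) while Csf1r goes down to 5.83 and 4.60 FPKM.

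The bases before the start sites of C1qb and C1qc are shown because these neighbours move together, with r = 0.959 between their levels over the 15 timepoints. They are RefSeq promoter sequences of GRCm38.p6, 250 bases that end just before the start site, on the gene's strand. Capitals mark GAGGAA, the core of the site of the myeloid factor PU.1, or its reverse complement. The motif was searched on both strands and occurs in 23.3% of all 32851 promoters of the table and in 11 of the 25 members it holds.
C1qb (chr4:136886201-136886450, minus strand): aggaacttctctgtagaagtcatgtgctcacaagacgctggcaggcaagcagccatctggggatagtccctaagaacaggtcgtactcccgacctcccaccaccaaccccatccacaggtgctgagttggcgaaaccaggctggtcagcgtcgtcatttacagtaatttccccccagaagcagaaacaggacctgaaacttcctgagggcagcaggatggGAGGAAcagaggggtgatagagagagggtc
C1qc (chr4:136892915-136893164, minus strand): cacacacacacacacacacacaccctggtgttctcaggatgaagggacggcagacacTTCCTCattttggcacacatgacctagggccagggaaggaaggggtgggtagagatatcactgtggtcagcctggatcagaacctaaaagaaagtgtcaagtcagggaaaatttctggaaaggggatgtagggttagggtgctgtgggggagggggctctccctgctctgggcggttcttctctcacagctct
Each holds the motif in 1 place. Aligned end to end, the sequences were identical at 42.9% of positions, beside 43.5% for Cpa3 and Mcpt1, which belong to different gene families. Other members with the motif were Cd3d, Cd3e, Cd68, Cd79a, Cd8a, Mrc1, Ptprc, S100a8 and Siglecf.

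Further macrophage genes moved in both directions. Of 18 listed, 16 were tested, 6 rose and 1 fell at the first step, and 1 rose and 2 fell at the second. For this list and those below, the shares of all genes were 10.8% higher and 30.6% lower at the first step. At the second step they were 2.57% higher and 28.9% lower. The 6 were Cd14, Trem2, Ms4a7, Clec4n, Ctss and Mpeg1. Ctss, the lysosomal protease cathepsin S, was lowest at E12.5 (7.79 FPKM) and highest at W1 (28.7 FPKM; first step 0.92, SE 0.22, adjusted p = 0.00306). Mertk, a receptor for the uptake of dying cells, fell at both steps, by 0.47 (SE 0.13, adjusted p = 0.00882) and by 0.82 (SE 0.17, adjusted p = 0.00168). The gene outside the members nearest to the macrophage sum was Ctss itself (r = 0.955), followed by Blnk, Crip1, Ier3 and Trnp1 (r between 0.940 and 0.942, n = 15 timepoints each).

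The mast cell proteases came in succession. The connective tissue type proteases Cma1, Mcpt4 and Tpsb2 rose from the fetal to the suckling stage and had their highest levels between D1 and D5, whereas the mucosal type proteases Mcpt1 and Mcpt2 were highest at W3. Cma1, Mcpt1, Mcpt2 and Mcpt4 lie together on chromosome 14 (55941451 to 55944661, 56017964 to 56020391, 56042123 to 56044634 and 56059744 to 56062310, with Cma1 and Mcpt4 on the minus strand), and the cytotoxic gene Gzmb lies farther along the same chromosome (56258856 to 56262260). Cma1, a chymase, was at 0.934 to 4.71 FPKM before birth (median 2.19), at 9.77, 10.8, 10.4, 8.75 and 2.99 FPKM from D1 to W2, and at 5.76, 5.25 and 1.51 FPKM at W3, W6 and W8. The suckling values lay above the fetal ones except at W2. Cma1 rose at the first step by 1.41 (SE 0.37, adjusted p = 0.00554), and the second was -0.91 (SE 0.47, adjusted p = 0.111). The first did not pass when D1, D3, D5, W1 or any fetal timepoint up to E15.5 was left out (1.28 to 1.40), nor without a filter on low genes.

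Mcpt4, the chymase mMCP-4, was at 0.0653 and 0.0584 FPKM at E12.5 and E13.5 and reached 3.81 FPKM at E18.5, with a fetal median of 1.51 FPKM. It was at 5.12, 7.15, 10.9, 6.75 and 3.61 FPKM from D1 to W2 and at 4.48, 4.36 and 1.34 FPKM at W3, W6 and W8. Only W2 of the suckling values reached into the fetal range. The first step was 1.80 (SE 0.40, adjusted p = 0.00201) and the second -0.84 (SE 0.50, adjusted p = 0.167). Tpsb2, a tryptase, was at 0.132 FPKM at E12.5 and 4.84 FPKM at E18.5, at 10.7, 10, 8.84, 4.51 and 3.15 FPKM from D1 to W2, and at 6.72, 10.6 and 2.93 FPKM at W3, W6 and W8. Tpsb2 rose at the first step by 1.84 (SE 0.41, adjusted p = 0.00213), while the second, -0.14 (SE 0.52, adjusted p = 0.83), turned its sign with median-ratio scaling (0.36) and without D1 (0.00) or W8 (0.28). Unlike Cma1 and Mcpt4, Tpsb2 was nearly as high at W6 as at D1, and per Cma1 it stood at 2.03 at W6 and 1.94 at W8 against at most 1.17 at earlier timepoints.

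Mcpt2 was listed at 0 at E12.5, was at 0.577 to 1.63 FPKM at the other fetal timepoints, and at 1.28, 3.11, 3.25, 12.1 and 9.26 FPKM from D1 to W2. At W3, W6 and W8 it was at 41.6, 19.7 and 8.60 FPKM. Thus its suckling stage divided into 3 low and 2 high timepoints, and the W8 value lay below those of W1 and W2. The first step passed (1.57, SE 0.44, adjusted p = 0.00716) and the second did not (1.87, SE 0.54, adjusted p = 0.0112). The call on the first was lost without E12.5, E13.5, E15.5, E16.5, E17.5, D3, D5, W1 or W2 (1.26 to 1.68), with a pseudocount of 0.1, without a filter, and with either phase grouping of the study. The second passed without E12.5, W1, W2 or W8, with median-ratio scaling (2.42) and with these groupings (2.09 and 2.29).

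Mcpt1 was at 0.124 to 0.986 FPKM before birth (median 0.495), with at most 14.7 fragments behind a value, and at 0.197, 0.0612, 0.809, 3.46 and 2.51 FPKM from D1 to W2. It was at 25.6 FPKM at W3 (bounds 23.0 and 28.3, 370 fragments), 14.4 FPKM at W6 and 1.99 FPKM at W8. The W3 and W6 values lay above every other timepoint and the W8 value lay below W1 and W2. Mcpt1 rose at the second step by 2.39 (SE 0.59, adjusted p = 0.00473), and the first was 0.49 (SE 0.47, adjusted p = 0.381). The rise did not pass without D1, D3, D5, W3 or W6 (1.73 to 2.34), with a pseudocount of 0.1 or without a filter. Over the 15 timepoints Mcpt1 and Mcpt2 had r = 0.908, Mcpt4 and Tpsb2 0.902, Mcpt4 and Cma1 0.887, and Mcpt1 and Mcpt4 0.251. Mcpt2 per Cma1 was 0.131 at D1, 0.313 at D5, 1.38 at W1, 3.09 at W2, 7.23 at W3, 3.75 at W6 and 5.69 at W8.

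**Figure D4:**
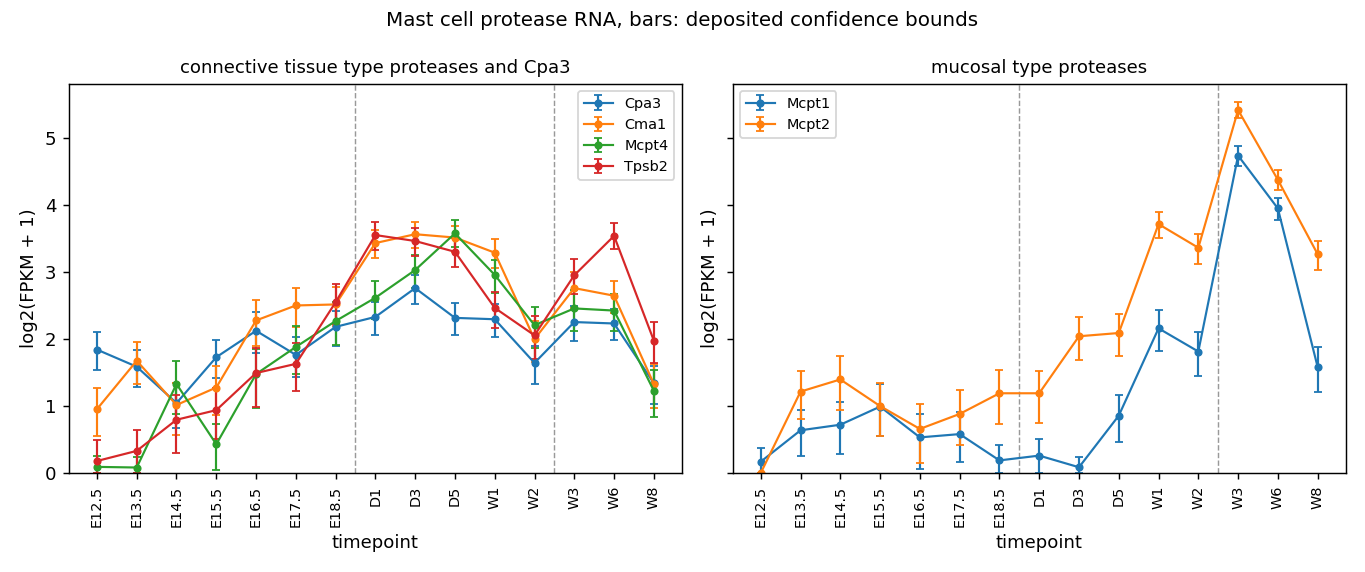
Mast cell proteases at the 15 timepoints as log2(FPKM + 1), with the deposited confidence bounds as bars and dashed lines at birth and weaning. Left, Cpa3, Cma1, Mcpt4 and Tpsb2; right, Mcpt1 and Mcpt2. Cma1 and Mcpt4 are highest at D3 and D5 (10.8 and 10.9 FPKM) and Mcpt1 and Mcpt2 at W3 (25.6 and 41.6 FPKM).

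Cpa3, the carboxypeptidase shared by most mast cells and their precursors, varied least. It was at 1.06 to 3.53 FPKM before birth, 2.12 to 5.76 in the suckling and 1.53 to 3.76 in the weaned stage. The deposited locus of Cpa3 overlaps 3 other entries, the longest of them LOC102633510 over 6176 bases. The stages overlapped and neither step passed (0.52, SE 0.23, adjusted p = 0.0621, and -0.33, SE 0.28, adjusted p = 0.338). It was at 2.58 FPKM at E12.5, when Mcpt4 and Tpsb2 were at 0.0653 and 0.132 FPKM. Ms4a2, the beta chain of the IgE receptor, stayed under the limit for testing, with 0 to 0.186 FPKM before birth, 0.0936 to 0.356 in the suckling and 0.403 to 0.641 FPKM in the weaned stage, whose values did not overlap with the suckling ones.

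The bases before the start sites of Mcpt1, Mcpt4 and Cpa3 are shown because Mcpt1 and Mcpt4 are close in sequence here and far apart in their time course. They come from the same RefSeq table. Capitals mark AGATAA, a site of GATA factors, and TGTGGT, the core of the RUNX site, in either orientation. AGATAA occurs in 9.99% and TGTGGT in 14.0% of the 32851 promoters, and in 6 and 10 of the 25 members.
Mcpt1 (chr14:56017714-56017963, plus strand): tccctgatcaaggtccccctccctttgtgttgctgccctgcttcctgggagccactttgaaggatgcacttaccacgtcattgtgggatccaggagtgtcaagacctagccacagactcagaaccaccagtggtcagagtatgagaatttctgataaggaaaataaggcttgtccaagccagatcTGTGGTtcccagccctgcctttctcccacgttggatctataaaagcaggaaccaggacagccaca
Mcpt4 (chr14:56062311-56062560, minus strand): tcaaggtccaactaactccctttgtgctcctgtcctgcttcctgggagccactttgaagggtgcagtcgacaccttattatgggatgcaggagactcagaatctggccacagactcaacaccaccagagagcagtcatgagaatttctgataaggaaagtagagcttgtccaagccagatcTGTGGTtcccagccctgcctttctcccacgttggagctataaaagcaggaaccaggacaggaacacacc
Cpa3 (chr3:20242182-20242431, minus strand): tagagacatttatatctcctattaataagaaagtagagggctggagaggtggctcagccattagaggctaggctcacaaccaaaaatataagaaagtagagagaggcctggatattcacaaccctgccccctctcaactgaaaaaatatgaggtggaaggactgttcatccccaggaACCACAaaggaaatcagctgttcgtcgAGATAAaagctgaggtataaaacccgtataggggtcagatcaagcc
Aligned end to end, Mcpt1 and Mcpt4 were identical at 209 of 258 positions (81.0%) and each holds TGTGGT in 1 place, while Cma1 was identical to them at 45.2% and 47.5%. Cpa3 holds AGATAA and TGTGGT in 1 place each. Only AGATAA was searched for GATA factors, so related stretches, such as tgataa in Mcpt1 and in Mcpt4, are not marked. The EBF motif CCCNNGGG occurs in 11.8% of all promoters and in 0 of the 25. Of the transcripts of Mcpt1, Mcpt2, Mcpt4 and Cma1, none shares a 50-base window with another of these 4, and 5.48% of the Mcpt4 windows occur in Cma2 and 0.661% in Mcpt9. Cma2 was listed at no more than 0.068 FPKM and Mcpt9 at no more than 0.172 FPKM. How fragments that fit several genes were assigned is not given in the sources used here, so the values of these paralogs hold within that limit.

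Of 16 further mast cell genes, 9 were tested, 1 rose at the first step (Tpsab1), and 2 rose (Hdc and Tph1) and 2 fell (Kit and Hpgds) at the second. Several are shared with other stomach cells. Kit, the receptor for stem cell factor, which the pacemaker cells of the gut muscle also carry, had the highest mean level and was at 14.8 to 31.1 FPKM before birth, at 14.4 to 21.4 FPKM in the suckling stage and at 7.96 and 7.41 FPKM at W3 and W6, with W8 above these and below every suckling value. Hdc, the histamine-forming enzyme that the enterochromaffin-like cells of the stomach also express, was at most at 3.29 FPKM up to W1. It was already at 9.14 FPKM at W2, in the suckling stage, and at 12.6, 12.7 and 21.3 FPKM from W3 to W8. The IgE receptor gene Fcer1a was listed at 0 at 8 timepoints and reached 0.418 FPKM at most. The genes nearest to the mast cell sum were Crip1 (r = 0.972), Itpk1, 2010109I03Rik, Sod3 and Tppp3 (r at least 0.949, n = 15 timepoints).

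The T cell markers were low throughout, and Cd4 alone could be tested. Cd3d, Cd3e and Cd3g encode chains of the T cell receptor complex and lie close together on chromosome 9 (44969572 to 45009781). Cd3d was listed at 0 at 8 timepoints, among them 6 of 7 fetal ones, and was at 0.0987, 0.197 and 0.272 FPKM at W3, W6 and W8, above all suckling values. Cd3e was listed at 0 at 8 timepoints, the 3 weaned ones among them, with its highest value of 0.230 FPKM at D1. Cd3g was at 0 to 0.285 FPKM before birth, 0.308 to 0.918 in the suckling and 0.111 to 0.482 FPKM in the weaned stage. Cd8a, the coreceptor of cytotoxic T cells, did not exceed 0.0467 FPKM, and at most 14.7 fragments (Cd3g at W1) stood behind any value of these 4 genes. Antisense and unnamed transcripts overlap Cd3e in the annotation. At such levels neither a T cell change nor its absence was detectable.

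Cd4, the coreceptor of helper T cells, which some macrophages and dendritic cells also carry, was at 0.117 to 0.506 FPKM before birth (median 0.300). It was at 0.925, 0.692, 1.42, 1.10 and 1.48 FPKM from D1 to W2 and at 1.34, 0.845 and 0.650 FPKM at W3, W6 and W8. All 8 postnatal values lay above all 7 fetal ones. Cd4 rose at the first step by 0.72 (SE 0.12, adjusted p = 0.000401), and the second was -0.13 (SE 0.15, adjusted p = 0.486), with the sign turned by median-ratio scaling (0.17). Among the macrophage markers, r with the level of Cd4 ran from 0.871 (C1qa) to 0.379 (Csf1r), 0.329 (Cx3cr1) and -0.204 (Mrc1). It was 0.564 with Ptprc and 0.756 with the mast cell gene Mcpt4 (n = 15 timepoints each). Which cells carried the Cd4 RNA was not tested. Of 20 further T cell genes 7 were tested with limma, and 0 rose at either step (1 at the first and 0 at the second at an unadjusted p under 0.05). Lck, the kinase of the T cell receptor, fell at the first step by 0.99 (SE 0.23, adjusted p = 0.0028), with 4.24 FPKM at E12.5 and 0.0464 FPKM at W8. Bcl11b, a transcription factor of T cells and of epithelia, fell at the second. Trbc2, a constant part of the T cell receptor, went up and then down. It was at 0.411 to 2.14 FPKM before birth, 1.85 to 3.36 in the suckling stage and 0.319 to 1.21 from W3 on. Neither step of Trbc2 passed (0.55, SE 0.20, adjusted p = 0.0323, and -0.81, SE 0.26, adjusted p = 0.0169). Trac and Trbc1 did not pass either. The summed level of the 20 genes was 10.6 to 14.1 FPKM before birth, 7.87 to 12.7 FPKM in the suckling stage and 2.81 to 5.59 FPKM from W3 on. At E12.5 Lck and Bcl11b made up 4.24 and 2.54 FPKM of a sum of 11.5 FPKM.

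Among the B cell markers Cd79b was the only one tested. Cd79b, a chain of the B cell receptor, was at 0.862 to 1.71 FPKM before birth (median 1.38), at 2.47, 1.05, 0.473, 0.572 and 1.05 FPKM from D1 to W2, and at 0.619, 0.261 and 0.363 FPKM at W3, W6 and W8. The stages overlapped and neither step passed (-0.16, SE 0.18, adjusted p = 0.452, and -0.52, SE 0.23, adjusted p = 0.0648). Its partner Cd79a was at no more than 0.405 FPKM, Ms4a1 (CD20) was listed at 0 at 8 timepoints and had its highest value, 0.207 FPKM, at W1, and the B lineage factor Pax5 was listed at 0 at 12 timepoints. An antisense transcript overlaps Ms4a1 over 16567 bases in the GENCODE annotation, and 15549 bases in the deposited loci. Of 18 further B cell genes 5 were tested and 3 rose at the first step (Igkc, Cd72 and Blnk). Igkc, the constant part of the kappa light chain, was listed at 0 at all 7 fetal timepoints, was at 1.33 to 2.12 FPKM in the suckling stage and at 0.737, 4.80 and 13.0 FPKM at W3, W6 and W8. Igha, the heavy chain of IgA, was listed at 0 up to W2 and was at 0.0547, 1.40 and 3.49 FPKM from W3 to W8 (second step 1.17, SE 0.29, adjusted p = 0.00516). Cd79a and Cd79b were low at W6 and W8, where Igkc and Igha were highest. Other genes of these lists did not go with Igkc and Igha. Ighm, with the highest mean level among the 18, was at 3.97 and 4.03 FPKM at W1 and W2. From W3 to W8 it was at 3.20, 2.17 and 2.27 FPKM, and it passed at neither step. Of the plasma cell genes, Mzb1 was listed at 0 at W3 and W8. Tnfrsf17 and Jchain were at no more than 0.0955 and 0.209 FPKM from W3 on.

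The NK and cytotoxic markers did not reach the limit for testing. Nkg7, a granule protein of cytotoxic cells, was highest at D1 (0.639 FPKM), the granzyme genes Gzma and Gzmb at E16.5 (0.555 FPKM) and E15.5 (0.389 FPKM), and the receptor gene Klrd1 at W2 (0.463 FPKM). The deposited locus of Gzma lies, over its whole length of 7155 bases, within that of Cdc20b. Nkg7 was listed at 0 at 2 timepoints, Gzma and Klrd1 at 5 each and Gzmb at 0 timepoints. The lower and upper bounds of the 4-gene sum were 0.747 and 2.29 FPKM at its highest (E15.5) and 0 and 0.661 FPKM at its lowest (E12.5). Of 15 further genes of these cells 1 could be tested with limma and 0 passed, also at an unadjusted p under 0.05 or with a mean-variance trend.

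S100a8 and S100a9, which encode the subunits of calprotectin, were the granulocyte markers with the highest levels and lie side by side on chromosome 3 (90669071 to 90670034 and 90692630 to 90695721). S100a8 was at 5.92 to 27.4 FPKM before birth (median 14.0), at 26.1, 4.73, 0.678, 3.57 and 6.14 FPKM from D1 to W2, and at 0.781, 0 and 1.79 FPKM at W3, W6 and W8. All weaned values lay below all fetal ones, for which no share of all genes was computed. Between the suckling and the weaned stage, 46.5% of all genes lay below in this way. S100a8 differed across the stages (adjusted p = 0.00224), but the single steps, -1.21 (SE 0.56, adjusted p = 0.0749) and -1.84 (SE 0.70, adjusted p = 0.0389), did not pass. Without D1 the first step was -1.75 and passed. S100a9 was at 4.46 FPKM at E12.5 and 38.8 FPKM at E18.5 (fetal median 21.7), at 61.8, 14.7, 2.92, 8.40 and 20.8 FPKM from D1 to W2, and at 10.1, 5.60 and 1.42 FPKM at W3, W6 and W8. The suckling stage spanned nearly the whole range, and neither the test across stages (adjusted p = 0.103) nor a step passed, the first (-0.38) turning its sign without D5 (0.11). S100a9 per S100a8 was 0.753 at E12.5, 5.87 at E18.5 and 12.9 at W3.

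Genes of other cell types were read at the same ages. The summed level of 11 squamous epithelium genes, all of which were expressed, was 57.0 FPKM at E12.5, 13914 FPKM at D1, the age at which S100a9 was highest, and 66.9 FPKM at W8. The summed level of 15 neutrophil genes was also highest at D1 (68.6 FPKM), where lactoferrin (Ltf) contributed 42.5 FPKM and the granule genes Camp and Ngp 8.95 and 6.44 FPKM. Camp and Ngp were at most at 3.27 and 3.25 FPKM at every other timepoint. Of the 15, 9 were tested with limma and 0 passed at either step (0 at the first and 2 at the second at an unadjusted p under 0.05, and 0 with a mean-variance trend). The 8 liver genes summed to 1185 FPKM at D1, 247 FPKM at E18.5, 332 FPKM at D3, and 1502, 2401 and 2227 FPKM at W3, W6 and W8. Apoa1 made up 1259, 2270 and 2125 FPKM of the sums from W3 to W8. Apoa1 and Ttr were highest after D5, and the other liver genes were highest at D1. Alb was at 461 FPKM at D1, against 14.6 FPKM at E18.5, 25.8 at D3, 65.4 at W3 and 0.672 at W8. Fgb was at 57.4 FPKM at D1 and 3.77 FPKM at W3. The 11 red cell and platelet genes summed to 5720 to 12539 FPKM before birth, 4592 FPKM at D1 and 479 FPKM at W8. Of other neighbouring organs, 7 genes of spleen and lymphoid stroma summed to 64.5 FPKM at E12.5 and at most 41.4 FPKM later. Nkx2-5 (29.3 FPKM) led them at E12.5. The 8 pancreas genes summed to 54.6 FPKM at E15.5 and 118 FPKM at D3, led there by Ctrb1. At the timepoints next to these they summed to 6.90 to 29.2 FPKM. From W3 to W8 they summed to 75.2, 103 and 98 FPKM, of which Cela1 made up 72.4, 96 and 85.5 FPKM. What part squamous cells, blood or tissue of another organ had in the S100a8 and S100a9 values was not tested. Without D1, 6 markers passed as higher and 1, S100a8, as lower at the first step.

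**Figure D5:**
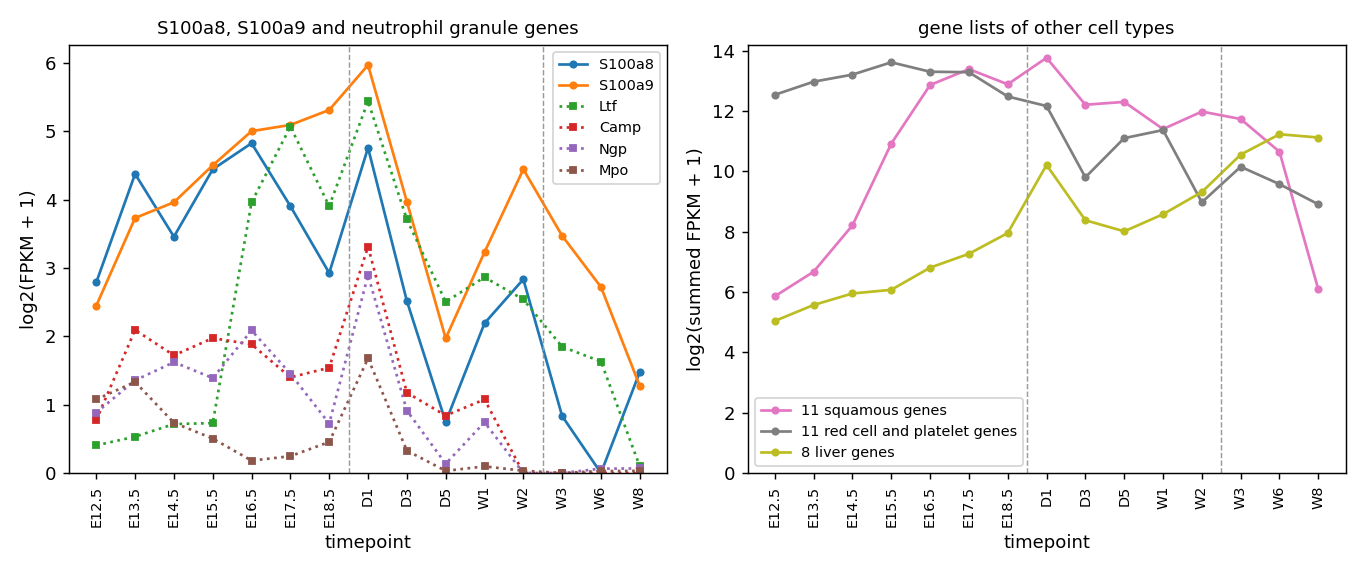
Left, log2(FPKM + 1) of S100a8, S100a9 and 4 neutrophil granule genes at the 15 timepoints; right, log2(summed FPKM + 1) of gene lists for squamous epithelium, red cells with platelets, and liver, with dashed lines at birth and weaning. S100a9, Ltf, Camp and Ngp share their highest value at D1 (61.8, 42.5, 8.95 and 6.44 FPKM).

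The eosinophil markers were low. Prg2, the major basic protein, was at 1.08, 0.664 and 1.15 FPKM from E12.5 to E14.5 and at no more than 0.371 FPKM afterwards. Siglecf, the sialic acid receptor of eosinophils, was at no more than 0.132 FPKM before birth, at 0.832 FPKM at W2 and at 1.13, 0.487 and 0.265 FPKM at W3, W6 and W8. Its suckling and weaned values overlapped, and neither gene passed at a step. The highest Prg2 and the highest Siglecf values thus lay in different stages. Of 8 further eosinophil genes 2 were tested with limma and 0 passed at either step, with 1 lower at the first and 1 higher at the second at an unadjusted p under 0.05. Ear2, an eosinophil ribonuclease, was at no more than 0.152 FPKM before birth and at 2.28, 6.76 and 1.88 FPKM at W2, W3 and W6, the ages of the highest Siglecf values, whereas Alox15 was at 2.51 to 3.37 FPKM from E15.5 to E18.5.

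Across leukocytes in general, 20 further genes were tested, and 2 rose at the first step (Itgb2 and Cd37) and 1 fell at the second (Nckap1l). Tyrobp, an adaptor of myeloid receptors with the highest mean level of the list, was at 20 FPKM at E12.5, 61.5 FPKM at D1 and 16.4 FPKM at W8. Itgb2, the beta chain of the leukocyte integrins, rose by 0.49 (SE 0.12, adjusted p = 0.00454). Ptprc itself did not pass, with 0.21 (SE 0.11, adjusted p = 0.101) and -0.19 (SE 0.13, adjusted p = 0.232), the second turning its sign with median-ratio scaling (0.14). Between 66 and 159 fragments stood behind its values.

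The factors that feed these cells were measured in the same libraries. Of 24 cytokine and chemokine genes 16 were tested; 4 rose at the first step (Csf1, Il34, Flt3l and Cx3cl1), 2 fell (Ccl25 and Cxcl13), and 1 fell at the second (Csf1). Csf1, a ligand of CSF1R, was at 6.17 to 9.75 FPKM before birth, at 10.7, 11.6, 15.0, 10 and 10.9 FPKM from D1 to W2 and at 4.86, 3.17 and 3.25 FPKM at W3, W6 and W8. Like its receptor, it stood in the suckling stage above all fetal and all weaned values (0.54, SE 0.13, adjusted p = 0.00324, and -1.42, SE 0.16, adjusted p = 0.000106). Il34, the other CSF1R ligand, rose at the first step by 1.04 (SE 0.21, adjusted p = 0.0012), with -0.27 (SE 0.26, adjusted p = 0.402) at the second. Cx3cl1, the ligand of CX3CR1, rose at the first step, with its lowest value at E12.5 (2.32 FPKM) and its highest at W2 (14.4 FPKM; 1.13, SE 0.26, adjusted p = 0.00255) and was at 6.91 to 7.85 FPKM from W3 on. Kitl, the growth factor of mast cells, stayed between 8.65 and 16.4 FPKM and did not pass. The chemokine genes Cxcl12 and Ccl11 had the highest mean levels of the list and took other courses. Cxcl12 was at 90.9 FPKM at E12.5 and 23.6 FPKM at W8, with steps of -0.63 (SE 0.27) and -0.87 (SE 0.33). Ccl11 was highest at E15.5 (47.4 FPKM), with a first step of -1.36 (SE 0.51). Neither gene passed at a step.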

How the data were processed

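RNA from whole mouse stomachs was sequenced at 15 timepoints with 1 library each. The authors deposited, for each library, a table of FPKM values per gene entry (46966 entries) with lower and upper confidence bounds. The tables have the layout of Cufflinks gene tables. The submitters' processing notes name Bowtie 0.12.2, FastQC and GRCm38.p2, while the methods of the study name HISAT2 and StringTie, so the quantification tool is uncertain. The RNA is said there to come from liver tissue, where the labels give stomach. FPKM is relative to the mapped fragments of its own library, so genes that take a large share lower all others.

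Entries of the same symbol were summed (44788 symbols). Symbols absent under the listed name were matched through RefSeq synonyms. The 16902 genes whose highest FPKM was 1 or more were tested on log2(FPKM + 1) with limma 3.58.1 in R 4.3.3, as a moderated F test across the 3 stages and as contrasts between consecutive stages, and p-values were adjusted by Benjamini-Hochberg across the 16902 genes, with 0.01 as the limit. Fold changes on this scale understate those of low genes. The stages follow birth and weaning in the labels, because the phases of the study were drawn from these transcriptomes. Timepoints served as replicates, so p-values measure only the spread between these libraries. Fragments behind a value were estimated from its bounds as the squared ratio of the FPKM to its standard error, and cover counting error only. Read depth itself is not given in the files. The script was tested on simulated data.

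All 34 members were named. Of the further lists, the 3 genes of highest mean FPKM were to be named, and for each lineage the 5 genes nearest to its sum by Pearson's r of log2(FPKM + 1). Not all of these are named above. Other genes given by name were chosen after their values were seen. The values of 1 gene in the further macrophage list are not reported here. The members and lists were chosen with earlier results of these data known. Promoters are the 250 bases before the start site in a RefSeq table that held 25 of the 34 members. Alternatives were a pseudocount of 0.1, no filter, a mean FPKM of at least 0.5, median-ratio scaling, a mean-variance trend, the first entry of a symbol, both phase groupings of the study (E18.5, or E17.5 and E18.5, with the suckling timepoints) and leaving out each timepoint.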

Additional observations from a re-analysis of the deposited data

Results flagged for a closer look

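By chance, a timepoint far from the others is found in about 1 set in 20. Here 1 timepoint lay so in 6 of 68 sets of 7 or 5 values (1 marker in the fetal or the suckling stage). Of these, 4 are single low values beside timepoints listed at 0 or near it: Cd3d at E18.5 (0.0498 FPKM), Ms4a1 at E18.5 (0.118 FPKM), Pax5 at E15.5 (0.0528 FPKM) and Pax5 at D1 (0.053 FPKM), each resting on few fragments. The level of C1qc at D1 (62.7 FPKM) stood above the other suckling values of 44.2 to 48.2 FPKM. The level of Cma1 at W2 (2.99 FPKM) stood below the other suckling values of 8.75 to 10.8 FPKM.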

How the results depend on the processing

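Of 42 results (21 markers at 2 steps), 18 kept their direction and their side of the threshold under every alternative run and with each timepoint left out; of these, the 4 of Prg2 and Siglecf were not run with a mean FPKM of at least 0.5, nor the 2 of Siglecf without W3, since the genes then missed the filter. Median-ratio scaling changed most. With it, 2966 genes were higher and 2470 lower at the first step and 2055 higher and 1343 lower at the second, 0 markers fell at weaning, and the second step turned its sign for Ptprc (0.14), Cd4 (0.17), C1qa (0.41), C1qb (0.33), C1qc (0.04), Cpa3 (0.12) and Tpsb2 (0.36) and the first for Mrc1 (0.11). The shift of the all-gene median that this scaling removes is given with the FPKM sums above. Genes of the further lists are given here without this scaling, so their steps include that shift. Summed levels then differed by 0.14 (Ptprc) and 0.15 (T) at the second step and by 0.96 and 0.46 (macrophage) at the first and second. As a mean of log2 values over the markers, the differences were 0.27 (T, first step), -0.23 (B, second) and 1.11 (mast, first). With E18.5 counted as suckling the first step turned for Mrc1 (0.09) and S100a9 (0.03). With E17.5 counted so too it turned for Mrc1 (0.13) and S100a9 (0.36), the second for Cd4 (0.05), C1qa (0.00) and Tpsb2 (0.11), and 693 genes were higher at weaning. A pseudocount of 0.1 left 1 marker higher at weaning. Other causes of change were not tested.

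With 1 timepoint left out, 5 to 9 markers rose and 0 to 1 fell at the first step, 0 to 3 rose at the second, and at the second 169 (without W6) to 573 genes were higher and 1359 (without W6) to 5660 lower. The second step ranged from -0.46 to 0.15 for C1qa, -0.57 to 0.10 for C1qb and -0.50 to 0.28 for Tpsb2, and the first from -0.89 to 0.11 for S100a9. No paired analysis was possible because the labels give no replicate numbers, the numbers used here only order the ages, and each timepoint has 1 library. The 13 markers below an FPKM of 1, among them all NK and most T and B cell markers, could not be tested, and with 1 library per age a single timepoint has no replicate error.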

Other observations

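Dendritic cell genes divided. Of 11 listed, 4 were tested and 3 passed at the first step. Itgax (CD11c) rose by 0.52 (SE 0.13, adjusted p = 0.00407), from at most 0.160 FPKM before birth to 1.15 FPKM at W2, while the transcription factor genes Batf3 and Zbtb46, which other cells also express, fell by 1.19 (SE 0.31, adjusted p = 0.00481) and by 0.83 (SE 0.20, adjusted p = 0.00297). Batf3 was at 13.6 FPKM at E13.5 and 0.560 FPKM at W8. Of 7 plasma cell genes 3 were tested, and Derl3, which secretory cells of other kinds express as well, rose at the first step by 3.58 (SE 0.44, adjusted p = 0.000103). It went from at most 2.02 FPKM up to E17.5 to 38.8 FPKM at W1, when Igha was listed at 0.

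Of 7 lymphatic and endothelial genes 6 were tested, with 1 higher and 2 lower at the first and 4 lower at the second step. Of all genes, 10.8% were higher and 30.6% lower at the first step, and 28.9% were lower at the second. Ccl21a, a chemokine of lymphatic vessels that guides T and dendritic cells, rose at the first step by 1.39 (SE 0.32, adjusted p = 0.00231) and was highest at W1 and W2 (22.0 and 22.4 FPKM). Of 7 genes of spleen and lymphoid stroma 5 were tested. Madcam1, the vascular address for gut lymphocytes, was at 7.92 to 15.8 FPKM from E12.5 to W1 and at 2.33, 1.16, 0.527 and 1.02 FPKM from W2 to W8, and fell at the second step by 2.37 (SE 0.39, adjusted p = 0.000569).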
